A study of Danio rerio with 4 samples.

Results

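The keratins described here are 8 zebrafish genes, krt18a.1, krt8, krt15, krt91, krt18b, krt97, krt93 and krt1-19e, measured in 2 populations of kidney cells. They were taken by gene symbol from the annotation of the array, with every probe set of each gene, which gave 10 probe sets among 15502 and 8 genes among 8793. A probe set is a group of short probes on the array that together report 1 transcript. Of the 8 genes, krt91 and krt1-19e had 2 probe sets each and the other genes 1 each.

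Keratins are the intermediate filament proteins of epithelial cells. Each filament is built from a type I and a type II keratin joined as a pair, and keratin 8 with keratin 18 is the pair of simple epithelia such as the lining of tubules and ducts. Keratins 5 and 15 are known from the basal layer of stratified epithelium in mammals. The filaments are anchored to cell contacts through desmosomes and to the matrix below through hemidesmosomes, and blood cells mostly carry other intermediate filament proteins, of which vimentin is the best known.

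Adult zebrafish were the source, and the kidney is where this fish forms its blood. Among cells of low forward and side scatter, the lymphoid gate, zSP is the side population, dim for the DNA dye Hoechst, and zMP the main population with brighter staining. Per the labels, 20 fish and 3 sorts supplied the cells, lysates were combined within a population, and the RNA of each pool was divided between 2 arrays. No strain, sex, genotype or treatment is named in the labels. Each population is therefore 1 RNA pool, the 2 arrays of a pool differ only by technical steps, and no test between the populations is possible. In such bulk samples more cells of a type and more RNA per cell cannot be told apart.

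Values are log2 expression values as deposited. A difference is the zSP mean minus the zMP mean, and the range after it spans the 4 pairs of a zSP and a zMP array. A probe set was called when each of the 4 pairs differed by 1 or more, which is 2-fold, and all had the same sign. A value of 6.15 was the top of the blank range, the highest pool mean among 49 control probe sets for sequences that zebrafish cells do not transcribe. The next highest control stood at 5.24, so that the top rests on a single control. Values at or below it do not show that a transcript was present.

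Across all probe sets Pearson's r was 0.943 between the zSP arrays, 0.952 between the zMP arrays and 0.868 to 0.875 between arrays of different pools. All probe sets together had a median difference of -0.21, and the 49 blank controls had one of -0.38, with 48 of them lower in zSP. For the GAPDH control, the 3′ probe set exceeded the 5′ one, a measure of how far copies are shortened, by 3.83 and 4.06 in zSP against 3.03 and 3.15 in zMP. Of the 16 leukocyte markers measured, 13 had a zSP mean and 12 a zMP mean above the blank range. The pan-leukocyte phosphatase gene ptprc stood at 8.87 and 8.91 in zSP and at 9.55 and 9.51 in zMP, so that the labelled lymphoid gate held leukocyte transcripts in both pools.

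Of the 8 keratin genes, 5 were called towards zSP and 0 towards zMP, where 7.85% of all genes were called towards zSP and 2.89% towards zMP. The 8 genes were chosen with earlier results of these data known, so that their counts are a description and no test. By probe set the counts were 6 of 10 and 0 of 10, against 6.65% and 2.5% of all probe sets. After cyclic loess, which moved the median of all probe sets to -0.01, the calls over all probe sets were 1235 towards zSP and 248 towards zMP, in place of 1031 and 387, and the keratin calls were as before. The median difference of the 10 keratin probe sets was 2.31. That median describes no typical member, since the called probe sets lay between 1.52 and 6.71 and the others between -0.63 and -0.29.

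The type II keratin krt8 was the keratin with a transcript above the blank range in both pools and a large difference. Its probe set Dr.1282.1.S1_at read 11.47 and 11.52 on the zSP arrays, against 6.76 and 6.86 on the zMP arrays. Arrays of 1 pool differed by 0.05 in zSP and 0.10 in zMP. The difference was 4.68 (4.61 to 4.75), or 25.6-fold, and ranked number 55 among all probe sets. The zMP mean of krt8, 6.81, was not far above the top of the blank range at 6.15, and the fold carries that limit.

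The type I partner of the simple-epithelial pair, krt18a.1, had the largest difference of the 8 genes. Dr.1372.1.S1_at stood at 10.63 and 10.43 in zSP, against 4.05 and 3.60 in zMP. The zSP arrays were high and the zMP arrays lay within the blank range, so that the difference of 6.71 (6.38 to 7.03) stands against background fluorescence and no fold is given. It ranked number 3 of 15502. A second copy, krt18a.2, is the next coding gene in the RefSeq gene order and had no probe set of its own, and whether the krt18a.1 probe set also detects it was not tested.

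The other keratin 18 gene, krt18b, showed a smaller difference. Dr.890.1.S1_at read 9.51 and 9.68 in zSP, against 8.25 and 7.91 in zMP, all above the blank range. Its groups did not overlap, which with zSP higher held for 19.1% of all probe sets. The difference was 1.52 (1.26 to 1.77), or 2.86-fold. This was the smallest difference among the called keratins, and its call ended when 3-fold was required. Of the 3065 probe sets with a zMP mean over 6.15, 5.48% were called towards zSP, and krt8 and krt18b were among them.

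The type I keratin krt15, in mammals a keratin of basal epithelial cells, was measured by Dr.25556.1.S1_at. It gave 7.31 and 7.41 in zSP, against 3.46 and 3.18 in zMP, where both arrays lay within the blank range. The difference was 4.04 (3.85 to 4.23), and both zSP values exceeded each zMP value by more than 3 on the log2 scale.

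The 2 probe sets of krt91 gave the same direction. Dr.12425.1.S1_at read 6.70 and 6.79 in zSP, against 2.98 and 2.85 in zMP, a difference of 3.83 (3.72 to 3.94). Dr.12425.1.S1_x_at, whose ending marks probes shared with other sequences, read 7.05 and 6.93 in zSP, against 3.58 and 4.18 in zMP, a difference of 3.11 (2.75 to 3.47). Both zSP means were above the blank range by less than 1, and both zMP means were within it. Averaged over its probe sets krt91 differed by 3.47 and kept its call.

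The remaining keratins, krt97, krt93 and krt1-19e, were not called and did not leave the blank range in either pool, so that no transcript was shown to be present. Dr.951.1.A1_at for krt93 read 3.35 and 3.52 in zSP, against 4.09 and 3.84 in zMP, a difference of -0.53 (-0.74 to -0.31). The gene krt1-19e, known in zebrafish as a marker of basal skin cells, read 3.72 and 3.90 in zSP against 4.34 and 4.34 in zMP with Dr.5531.1.S1_a_at. With Dr.5531.3.S1_at it read 3.64 and 3.82 in zSP against 4.10 and 3.95 in zMP. Its differences were -0.53 (-0.62 to -0.43) and -0.29 (-0.46 to -0.12). The groups of these 3 probe sets did not overlap and zSP was lower, but 43.5% of all probe sets showed the same, and the blank controls had a median of -0.38. After cyclic loess the second krt1-19e probe set stood at 0.02.

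For krt97 the 2 zSP arrays disagreed. Dr.20008.2.A1_at read 5.0 and 3.06 in zSP, against 4.51 and 4.82 in zMP, so that the zMP values lay between the zSP values. The difference of -0.63 (-1.75 to 0.49) was -1.6 without zSP replicate 1 and 0.34 without zSP replicate 2, and so had no settled direction. In the plot of values by array the spread within a pool is far smaller than the distance between pools for the 6 called probe sets. The rule for a call favours this, since probe sets whose arrays disagree tend to fail it.

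**Figure D1:**
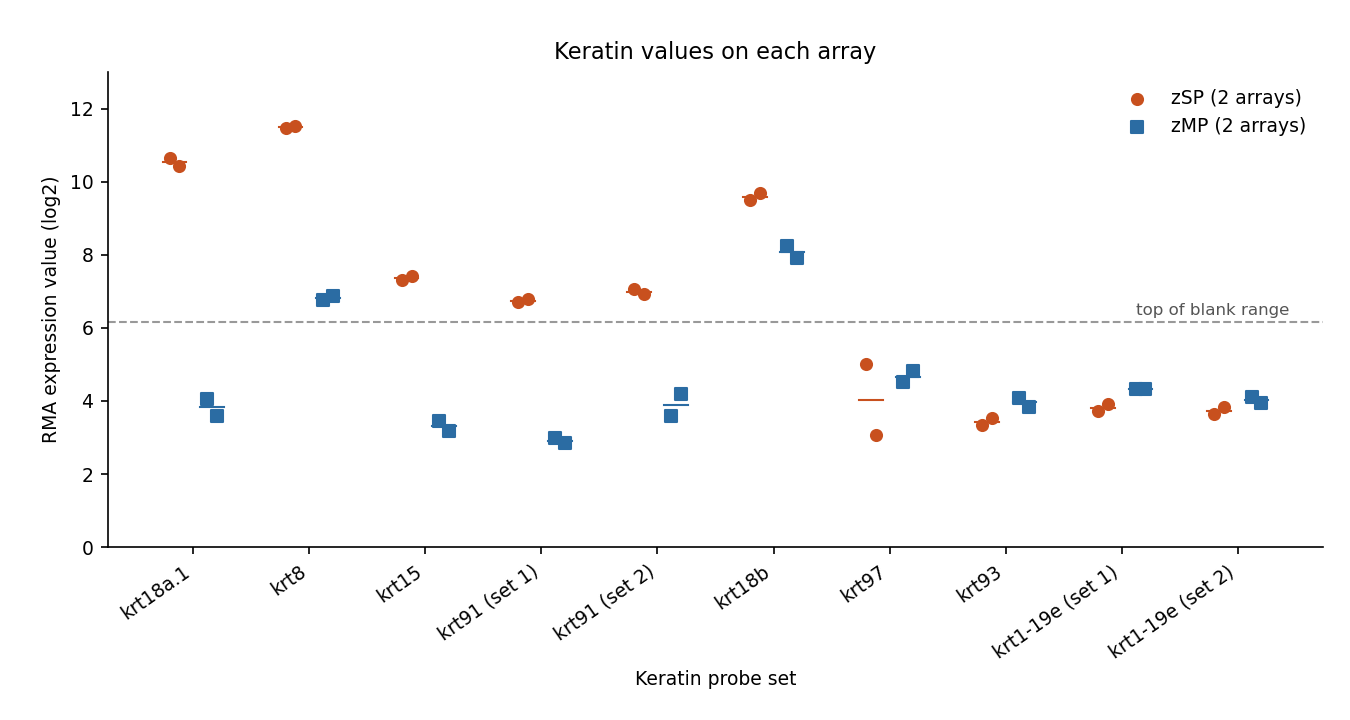
RMA expression values (log2, vertical axis) of the 10 probe sets of the 8 keratins, with circles for the zSP arrays, squares for the zMP arrays, short lines for the means of 2 arrays and a dashed line at 6.15, the top of the blank range. The zSP points of krt18a.1, krt8, krt15, krt91 and krt18b lie above the line, those of krt97, krt93 and krt1-19e below it, and krt8 and krt18b also have zMP points above it.

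Among the called probe sets the gap between the arrays of a pool was 0.05 to 0.20 in zSP and 0.10 to 0.60 in zMP. The smallest single pair of arrays was 1.26, for krt18b, larger than its own gaps of 0.17 in zSP and 0.34 in zMP. The rule for a call asks for 1 or more in every pair, so that small gaps among called probe sets are partly its product. With each of the 4 arrays left out in turn, the differences were 6.48 to 6.93 for krt18a.1, 4.63 to 4.73 for krt8 and 1.35 to 1.69 for krt18b. These checks concern how the same RNA was labelled and hybridized, and none bears on variation between fish.

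Other keratins of the array were then set beside these. A further 7 genes had a probe set of their own, namely krt4, krt5, krt17, krt94, krt95, krt99 and krt1-19d, and 1 probe set was shared by cyt1l and cyt1. The gene krtcap2, which begins with the same letters, encodes a membrane protein that is no keratin and was left out. None of the 7 genes was called by the 2-fold rule in all pairs, with differences from -0.36 to 1.5 and a median of 0.35, where all genes had a median of -0.20. Because the 8 genes were chosen with earlier results of these data known, their contrast with these 7 is no test. Over all 15 keratin genes 5 were called towards zSP, or 33.3%, and 0 towards zMP, against 7.85% and 2.89% of all genes.

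Nearest to a call was krt4, a type II keratin of surface epithelium. It read 5.71 and 5.58 in zSP, against 4.48 and 4.6 in zMP. The difference was 1.1 (0.98 to 1.22), so that 1 pair of arrays lay just under the size required, while krt18b, at 1.26 in its smallest pair, lay just over it. The krt4 call appeared after median centring and after cyclic loess. Both means were within the blank range up to 6.15, although the zSP mean of 5.64 passed the next highest control at 5.24.

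The type II keratin krt5 rested on 1 array. It stood at 4.02 and 6.61 in zSP, against 3.86 and 3.76 in zMP, a difference of 1.5 (0.15 to 2.85). Only zSP replicate 2 was high, and without zSP replicate 1 the gene was called. A similar split was seen for krt94, at 7.51 and 6.19 in zSP against 5.30 and 5.79 in zMP, a difference of 1.31 (0.41 to 2.21) that was called without zSP replicate 2. For krt94 the zSP mean, 6.85, was above the blank range, and the other 6 genes lay within it in both pools.

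**Figure D2:**
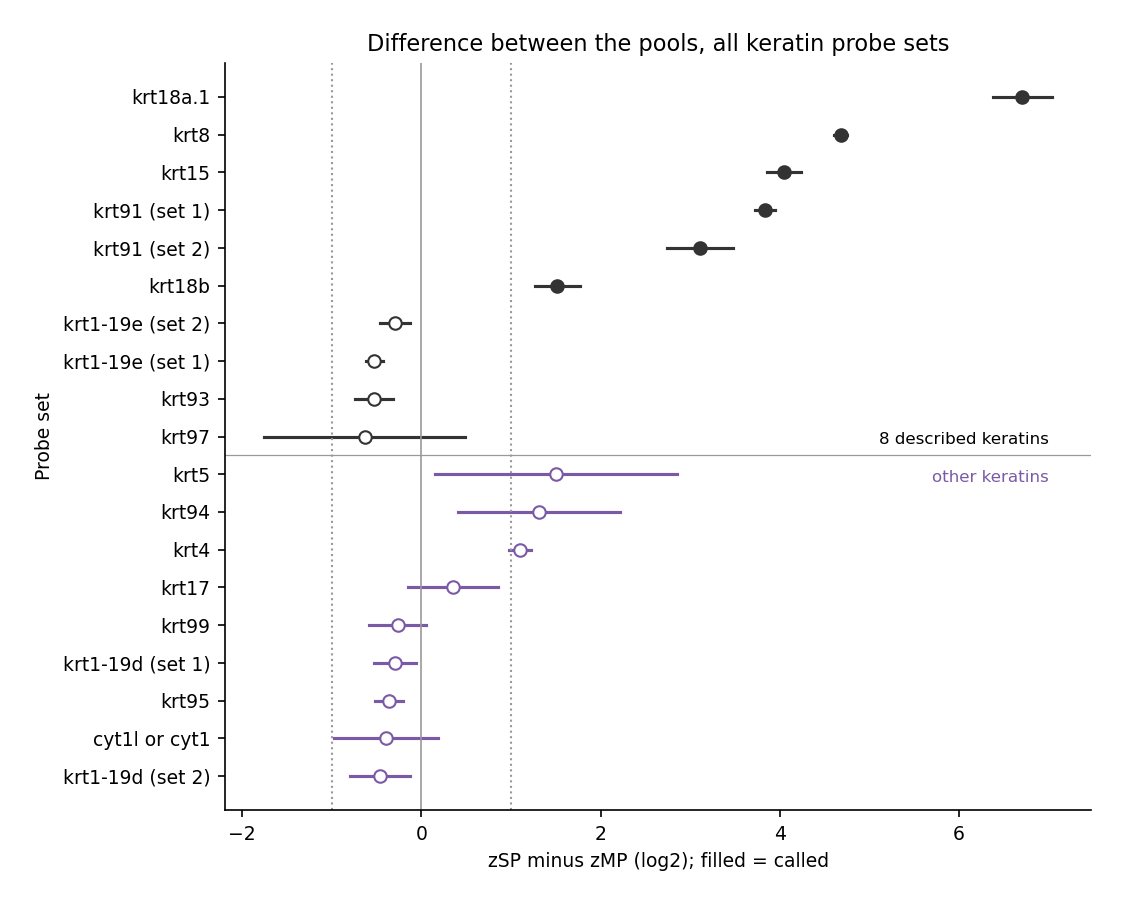
Differences between the pools (zSP minus zMP, log2, horizontal axis) for the 10 probe sets of the 8 keratins above the line and 9 of other keratins under it, each with a bar from the lowest to the highest of the 4 pairs of arrays. Filled points mark called probe sets, 6 of 10 above and 0 of 9 below, and dotted lines stand at a difference of 1 in either direction. The 8 keratins were chosen with earlier results of these data known.

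The called keratins did not come from a single gene neighbourhood. In the gene order of the GRCz12tu assembly, used here for order alone, krt5, krt8, krt18a.1 and krt18a.2 follow each other with no other coding gene between them. Of the 3 measured in that run, krt8 and krt18a.1 were called, at 4.68 and 6.71, and krt5 was not, at 1.5. The genes krt4 and krt18b, with 1 coding gene between them, stood at 1.1 and 1.52.

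Within the other runs 1 keratin was called and its measured neighbours were not. In the run of krt93, krt94, krt98, krt15 and krt99, with krt95 after 18 further coding genes, krt15 at 4.04 was the called gene of 5 measured. In that run krt94 stood at 1.31, and krt99 beside krt15 at -0.26. In the run of 7 from krt1-19d to krt91, krt91 at 3.11 was the called gene of 4 measured, while its neighbour krt17 stood at 0.35 and krt1-19e at -0.53. Near krt97 no other keratin was measured.

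**Figure D3:**
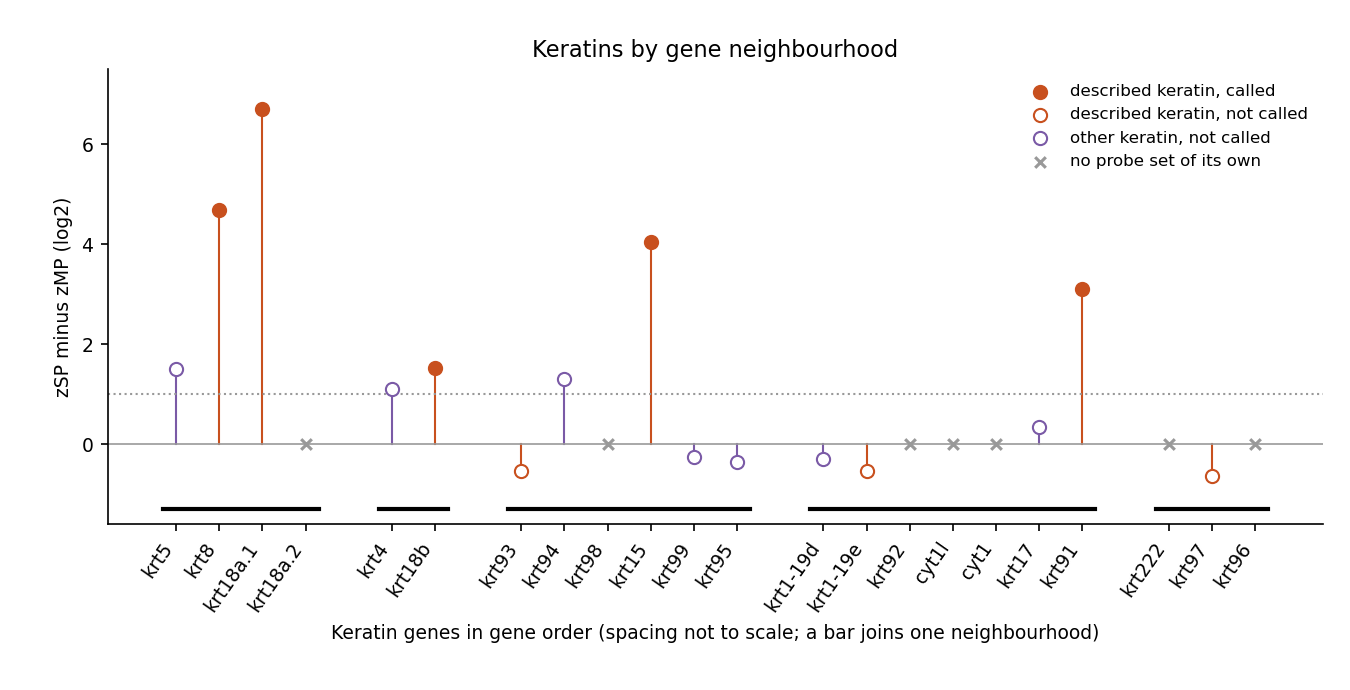
Differences between the pools (zSP minus zMP, log2, vertical axis) of the keratin genes arranged along the horizontal axis in gene order, with a bar under each neighbourhood and spacing not to scale. Filled points are called genes, open points were not called and crosses at 0 are genes with no probe set of their own, and the called genes fall in 4 of the 5 neighbourhoods drawn.

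Among all probe sets the called keratins differed in where they lay. For krt8 and krt18b both pool means were above the blank range, with zMP means of 6.81 and 8.08. By contrast krt15 and krt91 reached their differences from zMP values deep in the blank range. The ranks of the difference were number 99 for krt15, 120 and 253 for the probe sets of krt91 and 1161 for krt18b. Ranks of probe sets with 1 pool within the blank range carry that limit with them.

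**Figure D4:**
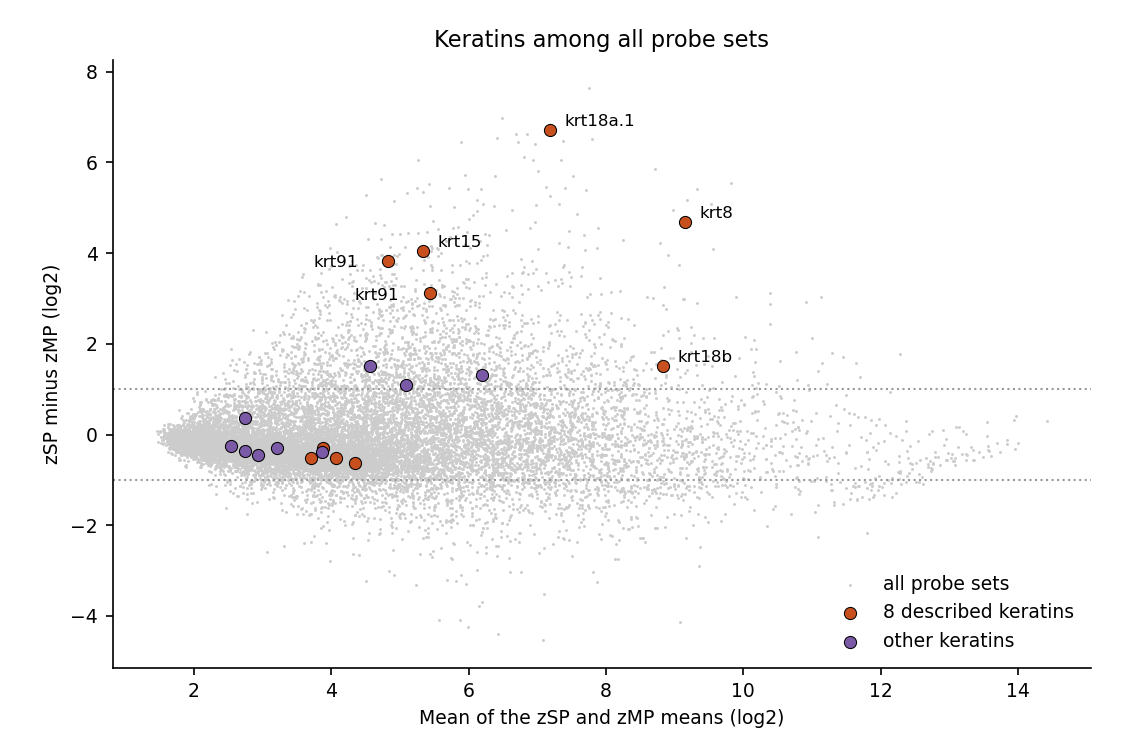
Difference between the pools (zSP minus zMP, log2, vertical axis) against the mean of the pool means (log2, horizontal axis) for 15502 probe sets in grey, with the 8 keratins and the other keratins in colour and dotted lines at a difference of 1 in either direction. The named points are the 6 called probe sets, and krt18a.1 at 6.71 lies near the upper edge of all probe sets.

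Genes that anchor keratin filaments were looked at next, as a list of 35 symbols of desmosome, hemidesmosome and linker genes, of which 17 had a probe set of their own. Of the 17, 7 were called towards zSP and 0 towards zMP, their median was 0.51, and all genes had a median of -0.20 with 7.85% of them called. Only 1 of the 17 zMP means, that of the plakoglobin gene jupa, was above the blank range. The differences of the other called genes therefore stand against background. The hemidesmosome-associated lad1 differed by 6.05 (5.58 to 6.52). The desmoplakin gene dspa, whose product ties filaments to desmosomes, read 6.47 and 6.92 in zSP, against 2.56 and 2.20 in zMP, a difference of 4.31 (3.90 to 4.71).

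The desmosomal cadherins were called too. The desmoglein gene dsg2.1 read 7.49 and 7.70 in zSP, against 3.50 and 3.70 in zMP, a difference of 3.99 (3.79 to 4.20). For the desmocollin gene dsc2l, with a zSP mean of 6.41 not far above the blank range, the difference was 2.80 (2.28 to 3.32). The desmosomal membrane gene perp differed by 3.63 (2.49 to 4.77) and the plakophilin gene pkp3a, within the blank range in both pools, by 2.98 (2.22 to 3.74). The plakoglobin gene jupa, whose probe set shares sequence with other transcripts, differed by 1.53 (1.04 to 2.03). Its call ended after a second quantile normalization and when 3-fold was required. Leaving out shared-sequence probe sets was no check of jupa, since its only probe set is among them. Shared-sequence probe sets are here those with names ending in s_at, x_at or a_at, and whether they detect other genes was not tested.

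Where a called partner gene had several probe sets, they disagreed. The second probe set of dspa differed by -0.32, that of dsc2l by -0.20 and that of perp by -0.59, and those of dsg2.1 by -0.54 and 0.03. All 5 stayed within the blank range on either side and none was called. With its 3 probe sets averaged dsg2.1 differed by 1.16 and lost its call, while dspa, dsc2l and perp kept theirs at 1.99, 1.3 and 1.52.

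Linker genes of the plakin family other than dspa were mostly at background. The periplakin gene ppl read 6.24 and 3.11 in zSP, against 2.98 and 3.21 in zMP, so that zSP replicate 1 alone was high. Its difference of 1.58 (-0.10 to 3.26) was called only without zSP replicate 2 and by the difference of means. The other 9 members of the partner list that were not called differed by -0.66 to 0.51. Besides the plectin genes pleca and plecb and the envoplakin genes evpla and evplb, they included itga6b, col17a1b and cd151l. For cd151l, which had 2 probe sets, this is the one with the higher mean. Without shared-sequence probe sets cd151l was called towards zSP.

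Filament genes outside the keratins were mostly not called. Of 14 other intermediate filament genes, 3 were called towards zSP and 0 towards zMP, where 7.85% and 2.89% of all genes were, and -0.46 was the list median against -0.20 for all genes. The lamin gene lmnb1, of the nuclear envelope, differed by 2.64 (2.34 to 2.94), but its second probe set by -0.69, and averaging them to 0.97 ended the call. Vimentin, vim, read 6.16 and 6.46 in zSP, against 4.07 and 3.99 in zMP, a difference of 2.28 (2.09 to 2.47). The desmin gene desmb, of muscle cells, differed by 1.62 (1.06 to 2.18) and lost its call after a second quantile normalization and when 3-fold was required. The zSP means of vim and desmb, 6.31 and 6.32, were barely above the top of the blank range at 6.15. For desmb, zSP replicate 1 was within that range at 5.88. The other 11, glial, neuronal, lens and lamin filaments among them, differed by -0.90 to -0.32, and the zMP means of all 14 lay within the blank range.

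Markers of other cell types were set beside the keratins, and their part in the keratin differences was not tested. The counts of these lists stand against 7.85% of all genes called towards zSP, 2.89% called towards zMP and a median of -0.20 over all genes. In an epithelium list, 14 of 20 genes were called towards zSP and 0 towards zMP, and the median was 3.47. Array medians of that list were 7.48 and 6.97 in zSP, against 3.49 and 3.63 in zMP, and its summed linear signal was 8740 and 8893 in zSP against 261 and 312 in zMP. All 20 zMP means lay within the blank range, and 12 zSP means were above it. The 6 genes not called lay within it in both pools, with differences from -0.29 for spint1b to 0.87 for esrp2. The tight-junction gene cldn7b was among the leading members at 5.34 (5.07 to 5.62), and epcam at 7.65, elf3 at 6.12, cldnb at 6.05, cldn3c at 6.04 and f11r.1 at 4.69 (3.56 to 5.82) were the others. Without shared-sequence probe sets epcam was not called.

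In an epidermis list fewer genes were called. Of 16 members 3 were called higher in zSP, namely agr2, a secretory cell gene, at 3.31 (3.02 to 3.60), s100a10b at 1.45 and icn at 1.23, of which s100a10b and icn lost their calls after a second quantile normalization, and the list median was -0.19. That list holds krt4 and krt5 too. The basal epidermis regulator tp63, a defining marker, read 5.32 and 5.36 in zSP, against 5.92 and 5.80 in zMP, within the blank range in both pools and lower in zSP by 0.52. The skin claudin cldni at -0.72 (-1.91 to 0.46), whose zSP arrays disagreed, and the periderm annexin anxa1c at -0.79 were within the blank range too. The summed linear signal of the list was 4462 and 4846 in zSP and 5395 and 6167 in zMP, and most of it came from pfn1, an actin-binding gene that many cells express.

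A kidney tubule list had 7 of 17 members called towards zSP and 0 towards zMP, and its median was 1.0. The cadherin gene cdh17 differed by 4.11, the sulfate transporter gene slc13a1 by 3.31, the transcription factor gene hnf1bb by 3.24, the sodium pump gene atp1a1a.4 by 2.37, pax2a by 2.34 and the cation transporter gene slc22a2 by 1.99. The genes cdh17 and hnf1bb are in the epithelium list too. Both slc22a2 and pax2a lost their calls with their probe sets averaged and when 3-fold was required. The call of slc22a2 also ended after a second quantile normalization. Neither pool mean of slc13a1, hnf1bb or pax2a exceeded 6.15, the top of the blank range, with zSP means of 5.47, 5.64 and 5.76. Each of these zSP means exceeded the next highest control at 5.24. For pax2a the zSP arrays were apart, at 6.93 and 4.58. Of the called genes named here, cdh17, atp1a1a.4 and slc22a2 had a zSP mean above that value. The tubule markers pax8 and slc12a3, the lowest of the list, were within the blank range on both sides, at -0.78 and -0.93. The blank controls had a median of -0.38. The summed signal was 921 and 645 in zSP against 256 and 299 in zMP, and 14 of the 17 did not leave the blank range in either pool.

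Of 10 stroma and smooth muscle genes, 6 were called towards zSP, the median was 1.91, and the list had summed signals of 4084 and 3691 in zSP against 460 and 681 in zMP. They were tagln at 6.47, acta2 at 5.46, postnb at 3.71, ccn2a at 3.70, col1a2 at 2.05 and dcn at 1.38. Of 7 endothelial genes, 3 were called, kdrl at 2.64 (1.51 to 3.76), cav1 at 2.63 (1.13 to 4.14) and klf2a at 1.96 (1.43 to 2.50). The endothelial list had a median of 0.35 and summed signals of 1437 and 837 in zSP against 445 and 446 in zMP. Within the blank range on either side were postnb, col1a2 and kdrl, and dcn lost its call after a second quantile normalization. None of the 3 endothelial calls nor that of dcn was left when 3-fold was required, and cav1 also lost its call when its probe sets were averaged or those with shared sequence were left out. Of 8 red cell genes 1 was called higher in zMP, hbaa1 at -4.24, with summed signals of 61 and 81 in zSP against 308 and 364 in zMP.

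Of the 16 leukocyte markers, 12 were not called, 1 was called towards zSP, the peroxidase gene mpx at 2.05, and 3 towards zMP, coro1a at -2.02, wasb at -1.5 and cd74b at -1.17. At 1.5-fold in every pair a further 7 were called towards zMP, some of them within the blank range in both pools. Calls towards zMP over all 15502 probe sets then rose from 387 to 1337. Genes of the kidney tubule, epidermis, red cell and other filament lists gained such calls too. At 3-fold wasb and cd74b were not called. The median of the 16 was -0.95, against -0.20 for all genes. Averaging over probe sets ended the calls of mpx and coro1a, mpx was not called without shared-sequence probe sets, and cd74b lost its call under each of the 3 rescalings. The summed signal of the list was 11366 and 12491 in zSP, against 22054 and 24458 in zMP.

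**Figure D5:**
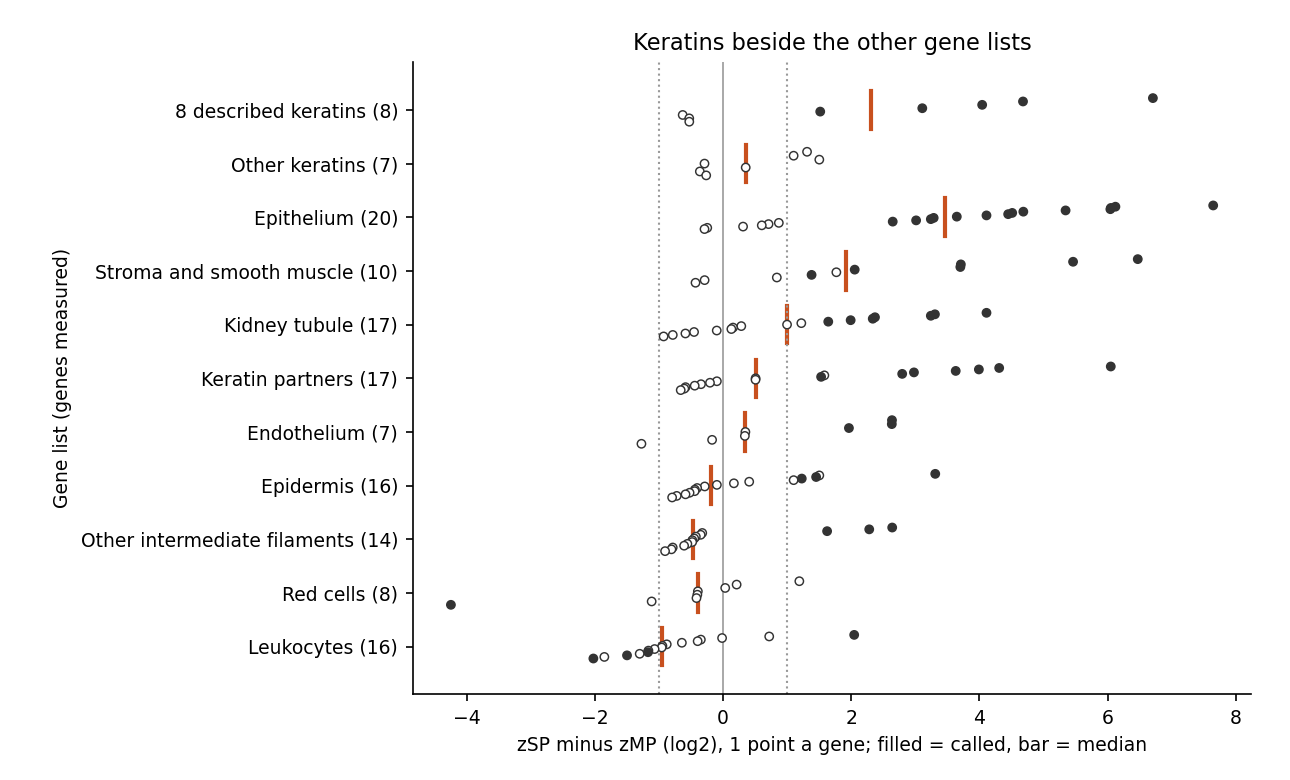
Differences between the pools (zSP minus zMP, log2, horizontal axis) of the genes of each list, 1 point a gene, filled where called, with a bar at the list median. The 8 keratins fall into a group at 1.52 and above and a group between -0.63 and -0.53, while epithelium genes reach 7.65, epidermis genes have a median of -0.19 and leukocyte genes one of -0.95.

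For each called keratin the genes with the most similar pattern over the 4 arrays were looked up, by the Euclidean distance between profiles centred on their own means. Genes known only by a clone or locus name were left out, and krt91 was represented by its shared-sequence probe set Dr.12425.1.S1_x_at. Only 4 arrays of 2 pools enter, so that a small distance mainly reflects a like difference between the pools. Nearest to krt18a.1 were the cofilin relative cfl1l at a distance of 0.30, the claudin cldn3d at 0.33 and the smooth muscle gene tagln at 0.39. For krt8 they were the mitochondrial carrier ucp1 at 0.19, the villin relative vill at 0.26 and the stress factor atf3 at 0.31.

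The profile of krt15 lay nearest to the prostacyclin synthase gene ptgis at 0.13, the smoothelin gene smtnb at 0.22 and the cytochrome P450 gene cyp3c3 at 0.24. That of krt91 lay nearest to zfp36l1b, an RNA-binding protein gene, at 0.16, the tubulin gene tuba8l3 at 0.17 and the lectin gene mbl2 at 0.21. For krt18b the nearest were rragca at 0.08, afg1la at 0.08 and zc3h11a at 0.11. No gene was listed for more than 1 keratin, which the spacing of the keratin differences largely fixed in advance.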

How the data were processed

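The deposited values are log2 expression values from an Affymetrix zebrafish array. The submitters' processing notes name RMA and the affy package. RMA corrects background, equalizes the probe distributions between arrays and summarises each probe set, and it compresses differences of dim probe sets. No version or probe set definition is given in the sources used here, and there are no detection calls. With 2 arrays for each pool, their number limits the precision. Per the labels' protocols the RNA was amplified in 2 rounds of in vitro transcription and labelled with biotin.

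All 4 columns matched a labelled sample. Of 15617 probe sets 115 controls were left out, and of the other 15502, 10795 carried 1 gene, 135 several and 4572 none. Symbols were updated through gene identifiers of the GRCz12tu table, where 8723 of 8796 were found. A gene was represented by its probe set with the highest mean. Of 208 symbols in 9 lists, 119 were found directly, 5 under an older symbol, and 84 had no probe set of their own.

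The members and lists were chosen with earlier results of these data known. Named were every probe set of the 8 keratins, other keratins that were called or had the largest differences, up to 6 called members of each list, and the 3 nearest genes of each called keratin. Other genes were named after their values were seen. They were krt4, jupa, ppl, pleca, plecb, evpla, evplb, itga6b, col17a1b, cd151l, spint1b, esrp2, ptprc, tp63, cldni, anxa1c, pfn1, pax8 and slc12a3. The blank range was likewise chosen after the controls were seen. Alternatives were other sizes, means alone, each array left out, 3 rescalings (cyclic loess in limma 3.58.1, R 4.3.3), same-numbered pairs, no shared-sequence probe sets, a filter on low values and averaged probe sets. No promoter or protein sequences are shown.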

Additional observations from a re-analysis of the deposited data

How the results depend on the processing

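At 3-fold in every pair krt18b lost its call and 4 keratin genes were left. The 5 keratin calls were also made after median centring, a second quantile normalization and cyclic loess. Leaving out shared-sequence probe sets or averaging probe sets could change only krt91 among the called genes, and its call was kept. The filter on the blank range could not end a call, since the zSP means of all 5 genes were above that range. At 1.5-fold, by the difference of means, with 1 array left out and with same-numbered pairs the rule asks no more than the 2-fold rule in all 4 pairs, so that no call could be lost. This holds for a replicate block of same-numbered pairs alone, with 6 keratin probe sets and 5 genes called, and 0 of the other keratins. The numbers do not pair the arrays by the labels, and the deviations of same-numbered arrays correlated at -0.01 across probe sets.

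Other keratins were called in 1 case each with 1.5-fold, median centring and cyclic loess (krt4), in 3 by the difference of means (krt4, krt5 and krt94), and in 0 to 2 with 1 array left out, namely krt5 without zSP replicate 1, krt4 and krt94 without zSP replicate 2 and krt4 without zMP replicate 2. The number of keratin probe sets called higher in zMP was 0 to 1 with 1 array left out, the 1 being krt97. Over all probe sets the calls higher in zSP were 593 at 3-fold, 1878 by the difference of means and 1443 to 1680 with 1 array left out. Those higher in zMP were 1337 at 1.5-fold, 94 at 3-fold, 1189 by the difference of means, 248 after cyclic loess and 818 to 905 with 1 array left out, where only 2 pairs need to pass.

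Differences that moved by more than the SD of their 4 pairs were those of krt8, 4.76 after median centring, 4.75 after a second quantile normalization and 4.93 after cyclic loess, and, after cyclic loess, those of the first krt91 probe set at 4.02, krt18b at 1.74, krt93 at -0.21 and krt1-19e at -0.22 and 0.024. The median over the keratin probe sets was 2.47 after cyclic loess, 2.67 without shared-sequence probe sets and 3.94 above the blank range, a filter that 4 of the 6 keratin probe sets left pass through zSP alone, where they are high. Averaging over probe sets left 6 partner genes and 2 other filament genes called. Rescaling moved the median of all probe sets from -0.21 to -0.14, -0.15 and -0.01. Signal over background limits krt97, krt93, krt1-19e and most other keratins.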

Other observations

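Some keratin probe sets differed between the arrays of the zSP pool. Of the 19 keratin probe sets 4 had a gap of at least 1 between the zSP arrays, krt5 at 2.60, krt97 at 1.93, krt94 at 1.32 and the shared cyt1l and cyt1 probe set at 1.15, and none had such a gap between the zMP arrays, where the widest was 0.60. Over all 15502 probe sets 14.7% had a gap of at least 1 in zSP and 11.5% in zMP. Among those within the blank range on either side the shares were 14.1% and 9.52%, and 3 of 12 such keratin probe sets had the gap in zSP and 0 of 12 in zMP. The high array was zSP replicate 2 for krt5 and for the shared probe set, and zSP replicate 1 for krt97 and krt94, so that no single array was high throughout. These keratins were picked after their values were seen.

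Probe sets of 1 gene disagreed for lmnb1 and for each called partner gene that had several, dspa, dsg2.1, dsc2l and perp. In each of these 5 genes 1 probe set was called higher in zSP, and the others were within the blank range on either side. The partner gene cd151l, not called by its probe set with the higher mean, was called towards zSP without shared-sequence probe sets. The 2 probe sets of krt91, by contrast, were both called, and the 2 of krt1-19e were both within the blank range.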
